A study of Mus musculus with 6 samples.

Results

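The unfolded protein response and secretory machinery was followed here as 43 named mouse genes that act in or for the endoplasmic reticulum (ER), the compartment where secreted and membrane proteins are folded. They were taken by gene symbol from the annotation of the array's probes. Of the 43 genes, 38 had a probe and 30 were tested, among 10304 genes tested in all. A probe was tested when its intensity lay above the 40th percentile of its array on at least 3 of the 6 arrays, and the brightest such probe stood for its gene. All 30 genes passed that filter on all 6 arrays, so no gene entered through the group in which it was high. The study profiled RNA of mouse splenic B cells on 6 single-colour Illumina bead arrays. The TRAF3KO group held 3 arrays of premalignant splenic B cells that were TRAF3-/-, and the Control group held 3 arrays of normal splenic B cells. The adaptor TRAF3 limits the survival of B cells and holds back non-canonical NF-kB signalling, and the comparison asked what its absence alters. The labels name neither the way TRAF3 was removed nor the age, strain, number of mice or purity of the cells. The labels do not give sex. By Xist and Eif2s3y, 2 of 3 TRAF3KO arrays and 1 of 3 Control arrays were female, so each group held RNA of more than 1 mouse and the sexes were not balanced. With that inferred sex as a term of the fit, the same 3 genes of the set had an adjusted p under 0.05 as without it. Whether all arrays of a group came from separate mice is not given, so the p-values cover only the spread among these arrays, part of which may be technical. In such bulk samples fewer cells of a type and less RNA per cell cannot be told apart.

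When unfolded proteins build up in the ER, 3 membrane sensors start the unfolded protein response: IRE1 (gene Ern1), PERK (Eif2ak3) and ATF6 (Atf6). IRE1 splices the mRNA of the transcription factor XBP1, PERK slows translation and favours ATF4, and ATF6 is cut to release a transcription factor. Together they raise chaperones, disulphide isomerases, the degradation machinery and the channel through which new proteins enter the ER. B cells depend on XBP1 and on BLIMP-1 (Prdm1) to become antibody-secreting plasma cells. ATF6 and XBP1 bind the ER stress response element (ERSE), in which CCAAT and CCACG stand a fixed distance apart, and a compact form of it called ERSE-II.

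The promoters are shown first, because many of these genes share that element. RefSeq promoter windows on GRCm38.p6, from 250 bases before to 50 bases after each gene's start, were found for 35 of the 43 genes. ERSE was searched as CCAAT and CCACG with 9 bases of any kind between them, and ERSE-II as ATTGG and CCACG with 1 base between them. The core of the unfolded protein response element was searched as TGACGTGG. All were searched on both strands, with spellings taken from general knowledge of these elements. The 3 spellings can share the bases CCACG, and no gene of the set matched more than 1 of them. ERSE was found in 9 of the 35 genes (25.7%), against 39 of 32851 promoter windows of all genes (0.119%). ERSE-II was found in 2 of the 35 genes (5.71%), against 12 windows of all genes (0.0365%). TGACGTGG was found only in Txndc5 among the 35 genes, and in 0.676% of all windows. The set was listed as genes of this response, so these shares describe the list and test nothing. They count genes for the set, some with more than 1 window, and windows for all genes. The matches of the tested genes are given below 5′ to 3′ as the element reads, with the bases that the search fixed in capitals.
Hspa5, chr2:34772025-34772043, plus strand: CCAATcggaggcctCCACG
Hsp90b1, chr10:86705638-86705656, minus strand: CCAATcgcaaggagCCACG
Hsp90b1, chr10:86705533-86705551, plus strand: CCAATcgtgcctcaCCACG
Dnajc3, chr14:118937827-118937845, plus strand: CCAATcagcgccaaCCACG
Creld2, chr15:88819520-88819538, minus strand: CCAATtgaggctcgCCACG
Calr, chr8:84847075-84847093, plus strand: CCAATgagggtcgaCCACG
Derl3, chr10:75893242-75893260, minus strand: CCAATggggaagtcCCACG
Syvn1, chr19:6046532-6046550, plus strand: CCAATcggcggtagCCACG
Herpud1, chr8:94386377-94386387, plus strand: ATTGGgCCACG

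The other matches lay in genes without a tested probe: ERSE in Canx and Pdia6, and ERSE-II in Dnajb11. A match is a description of letters, not a measured binding site. The whole windows of Herpud1, which rose in TRAF3KO cells, and of Hspa5, whose product BiP is the main ER chaperone, show where the element stands. It began 52 bases before the start of Herpud1 and 65 bases before the start of Hspa5, and capitals mark its fixed bases.
Herpud1, chr8:94386179-94386478, plus strand: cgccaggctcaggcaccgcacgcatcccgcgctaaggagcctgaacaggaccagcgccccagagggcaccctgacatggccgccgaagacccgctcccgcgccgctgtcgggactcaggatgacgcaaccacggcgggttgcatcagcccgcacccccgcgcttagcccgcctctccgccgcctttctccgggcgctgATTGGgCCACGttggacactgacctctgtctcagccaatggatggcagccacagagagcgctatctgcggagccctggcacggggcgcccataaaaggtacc
Hspa5, chr2:34771840-34772139, plus strand: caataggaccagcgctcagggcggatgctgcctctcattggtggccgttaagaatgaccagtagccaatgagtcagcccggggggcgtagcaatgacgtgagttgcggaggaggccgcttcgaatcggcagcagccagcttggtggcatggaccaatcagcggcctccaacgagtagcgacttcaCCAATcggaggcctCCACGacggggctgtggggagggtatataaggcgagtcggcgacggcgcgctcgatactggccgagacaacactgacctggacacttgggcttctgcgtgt

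In TRAF3KO cells 3 of the 30 tested genes rose and 0 fell at an adjusted p under 0.05 (10.0%, against 4.44% of all genes in either direction). They were Xbp1, Herpud1 and Pdia4, which rose 1.39-fold, 1.35-fold and 1.57-fold. The test was limma's moderated test on log2 intensities, with Benjamini-Hochberg adjustment over all tested probes. By direction, the background was 2.3% of all genes called higher and 2.14% called lower. At an unadjusted p under 0.05, 11 genes were higher and 2 lower in TRAF3KO, where 8.35% and 8.55% of all genes were.

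The tested genes as a whole lay above zero more often than genes at large. The difference, TRAF3KO minus Control, was positive for 22 of the 30 (73.3%), against 50.7% of all genes. Its median was 0.18 on the log2 scale, against 0.00 for all genes. All 3 TRAF3KO arrays lay above all 3 Control arrays for 12 genes (40%, against 11.0% of all genes), and below them for 1 gene, Txndc5 (3.33%, against 11.4%). These are counts without a test, over genes measured on the same arrays, which are not independent of each other. By array, 11 of the 30 genes had their highest value on TRAF3KO replicate 2, and 6 each on TRAF3KO replicates 1 and 3. The lowest value fell on Control replicate 1 for 10 genes and on Control replicate 3 for 9.

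**Figure D1:**
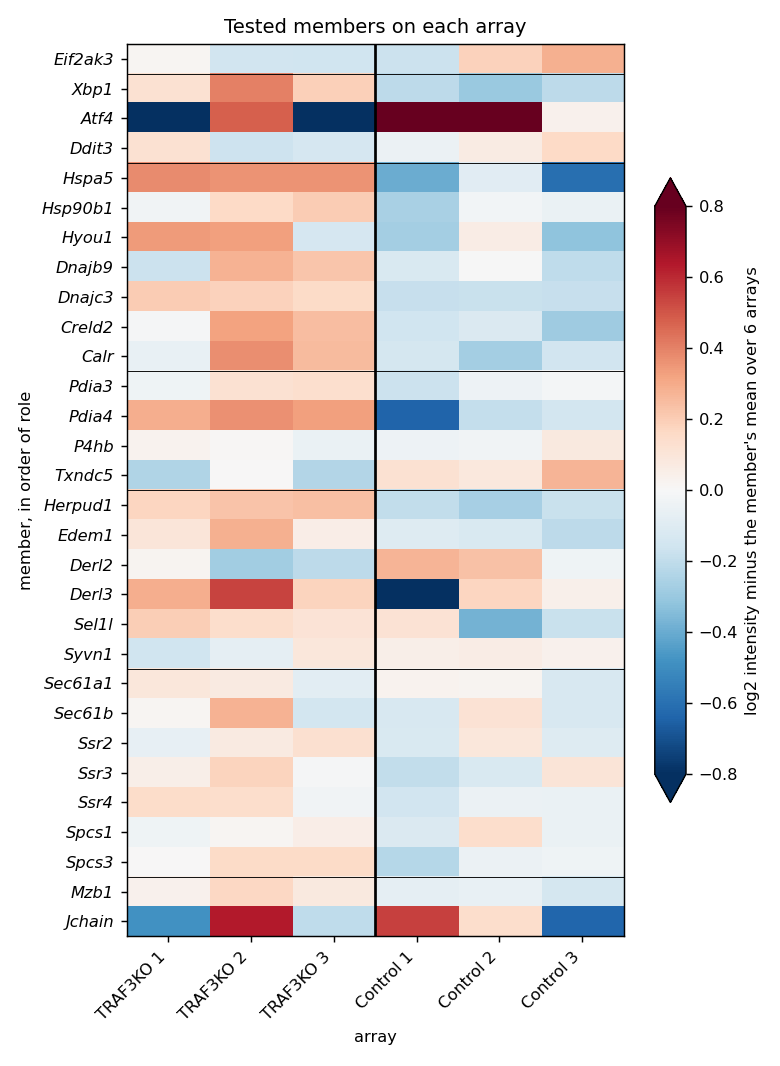
Log2 intensity of each of the 30 tested genes (rows, in order of role) on the 6 arrays (columns), as the deviation from that gene's mean over the arrays; colours saturate at 0.8 on either side. Xbp1, Herpud1, Pdia4 and 9 further genes are higher on every TRAF3KO array than on any Control array, and Atf4, Derl3 and Jchain vary most within a group.

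Of the sensors, Eif2ak3 alone was tested. Eif2ak3, which encodes PERK, had log2 intensities of 10.44, 10.27 and 10.26 in TRAF3KO cells, against 10.25, 10.61 and 10.71 in Control cells. The groups overlapped, and the difference was -0.20 (95% interval -0.48 to 0.08, adjusted p = 0.48). Ern1 (IRE1) lay below the filter, at 1.43, 0 and 0 in TRAF3KO cells and 0, 0 and 4.34 in Control cells. Atf6 had no probe under its symbol, its synonyms or its gene identifier.

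Xbp1, the transcription factor that expands the ER in secreting cells, had log2 intensities of 12.57, 12.85 and 12.64 in TRAF3KO cells, against 12.24, 12.15 and 12.24 in Control cells. Every TRAF3KO array was above every Control array, and TRAF3KO replicate 2 was the highest. The mean was 12.69 ± 0.15 in TRAF3KO cells and 12.21 ± 0.05 in Control cells (SD, n = 3 each). Xbp1 rose by 0.48 ± 0.08 (log2 difference and SE; limma adjusted p = 0.0094). Its spliced form was not analysed here, since the array gives a single value for the gene.

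Atf4, the transcription factor downstream of PERK, gave the widest difference in the set without passing the test. Its log2 intensities were 8.99, 10.64 and 8.72 in TRAF3KO cells, against 11.28, 11.13 and 10.20 in Control cells. TRAF3KO replicates 1 and 3 were low, while TRAF3KO replicate 2 lay above the lowest Control array, so the groups overlapped. The difference was -1.42 ± 0.43 (limma adjusted p = 0.11). With 1 array left out the adjusted p ran from 0.0064 to 0.34, under 0.05 only without TRAF3KO replicate 2 (difference -2.01). The single probe that measured Atf4 leaves its spread between arrays unchecked by another probe.

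Ddit3, which encodes CHOP, a factor induced by ATF4 in prolonged stress, had log2 intensities of 9.95, 9.66 and 9.69 in TRAF3KO cells, against 9.77, 9.89 and 9.98 in Control cells. The groups overlapped, and the difference was -0.12 (95% interval -0.38 to 0.14, adjusted p = 0.68). Prdm1, the BLIMP-1 gene of plasma cells, lay below the filter, with 0, 5.62 and 3.95 in TRAF3KO cells and 3.04, 2.81 and 0 in Control cells on its brighter probe.

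**Figure D2:**
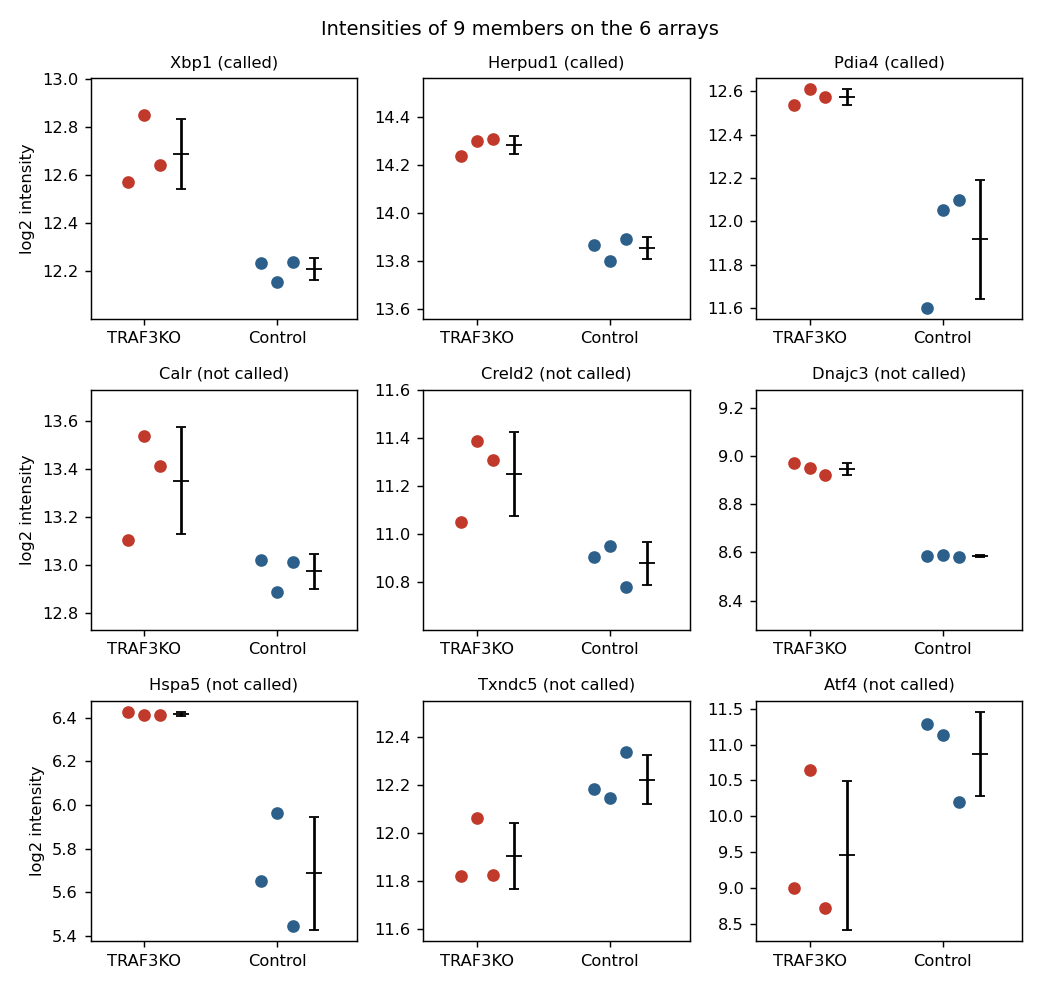
Log2 intensity (vertical axis, which does not start at 0 and has its own range in each panel) of 9 genes on the 3 TRAF3KO arrays (red) and the 3 Control arrays (blue), with mean and SD in black. Xbp1, Herpud1 and Pdia4 passed the test; Calr, Creld2, Dnajc3 and Hspa5 were also higher on every TRAF3KO array without passing it, Txndc5 was lower on every TRAF3KO array, and the groups of Atf4 overlap.

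All 7 tested chaperone and cofactor genes had positive differences, from 0.22 to 0.73 with a median of 0.36, and 0 of them passed limma's test (4 had an unadjusted p under 0.05). Calr, the lectin chaperone calreticulin, had log2 intensities of 13.10, 13.54 and 13.41 in TRAF3KO cells, against 13.02, 12.89 and 13.01 in Control cells. The groups were apart, though TRAF3KO replicate 1 lay close to the Control arrays. Its difference was 0.38 ± 0.10 (limma adjusted p = 0.072). With 1 array left out the adjusted p ran from 0.012 to 0.24, under 0.05 only without TRAF3KO replicate 1 (difference 0.50).

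Creld2, whose ER stress-induced product associates with disulphide isomerases, had log2 intensities of 11.05, 11.39 and 11.31 in TRAF3KO cells, against 10.90, 10.95 and 10.78 in Control cells. Its groups were also apart, with TRAF3KO replicate 1 again the lowest of its group. The difference was 0.37 ± 0.10 (limma adjusted p = 0.083). With 1 array left out the adjusted p ran from 0.041 to 0.27, under 0.05 only without TRAF3KO replicate 1 (difference 0.47). A second, dimmer Creld2 probe gave a difference of 0.24 ± 0.09 (adjusted p = 0.22).

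Dnajc3 encodes a BiP co-chaperone that also inhibits PERK. Its log2 intensities were 8.97, 8.95 and 8.92 in TRAF3KO cells, against 8.59, 8.59 and 8.58 in Control cells. The arrays within each group lay closer together than for any other chaperone gene but Hspa5 in TRAF3KO cells, and the groups did not overlap. The difference was 0.36 ± 0.13 (adjusted p = 0.17), where the SE is that of limma, which moves a gene's own spread towards that of genes of like intensity. By a linear model for each probe without that step the adjusted p was 0.014. By limma with 1 array left out it ran from 0.25 to 0.33.

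Hspa5 had the largest chaperone difference, on a probe with low intensity. Its log2 intensities were 6.43, 6.41 and 6.41 in TRAF3KO cells, against 5.65, 5.96 and 5.45 in Control cells. The groups did not overlap, and the difference of 0.73 had a 95% interval of -0.03 to 1.49 (adjusted p = 0.33). Hsp90b1, the ER form of HSP90, had 13.67, 13.86 and 13.90 in TRAF3KO cells, against 13.44, 13.68 and 13.64 in Control cells, with TRAF3KO replicate 1 just inside the Control range. Its difference was 0.23 (95% interval 0.04 to 0.41, adjusted p = 0.21).

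Hyou1, an ER exchange factor and chaperone, differed by 0.35 (95% interval -0.08 to 0.79, adjusted p = 0.42), and its groups overlapped because TRAF3KO replicate 3, at 7.90, lay below Control replicate 2, at 8.09. Dnajb9, a BiP co-chaperone that restrains IRE1, differed by 0.22 (95% interval -0.07 to 0.50, adjusted p = 0.45), with TRAF3KO replicate 1 among the Control values. Of the other chaperone genes, Canx and Manf lay below the filter. Canx, which encodes calnexin, was listed at 0 on 5 of the 6 arrays. Since calnexin serves nearly all cells, a value of 0 says only that the gene is listed at 0. Dnajb11 and Sdf2l1 had no probe.

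The disulphide isomerases, which form and reshuffle disulphide bonds in new proteins, had 1 of 4 tested genes called, Pdia4. Pdia4 (ERp72) had log2 intensities of 12.54, 12.61 and 12.57 in TRAF3KO cells, against 11.60, 12.05 and 12.10 in Control cells. The TRAF3KO arrays were close together and above all Control arrays, of which replicate 1 was the lowest. The mean was 12.57 ± 0.04 in TRAF3KO cells and 11.92 ± 0.27 in Control cells (SD, n = 3 each). Pdia4 rose by 0.65 ± 0.12 (limma adjusted p = 0.011), and without TRAF3KO replicate 2 the adjusted p was 0.051.

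Txndc5 (ERp46), an isomerase abundant in plasma cells, was the only tested gene of the set whose TRAF3KO arrays all lay below the Control arrays. Its log2 intensities were 11.82, 12.06 and 11.82 in TRAF3KO cells, against 12.18, 12.14 and 12.34 in Control cells. The difference was -0.32 ± 0.09 (adjusted p = 0.087). P4hb, the founding isomerase, had 12.96, 12.94 and 12.88 in TRAF3KO cells, against 12.89, 12.91 and 13.02 in Control cells. The groups of P4hb overlapped, and its difference of -0.01 had a 95% interval of -0.16 to 0.14. Pdia3 (ERp57), the partner of calreticulin and calnexin, differed by 0.15 (95% interval -0.01 to 0.32, adjusted p = 0.35). Pdia6 had no probe.

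**Figure D3:**
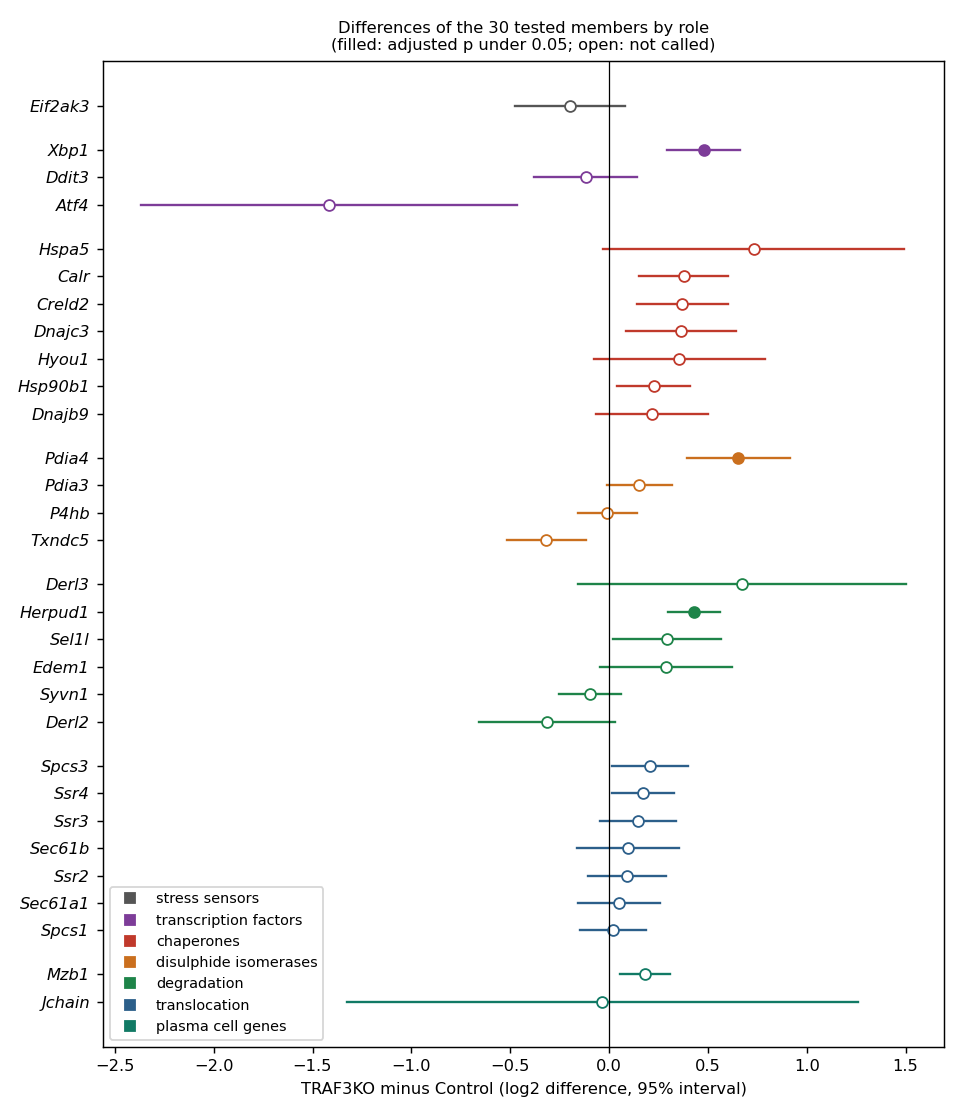
Log2 difference, TRAF3KO minus Control, of each of the 30 tested genes (points) with its 95% interval from limma (lines), grouped and coloured by role; filled points passed the adjusted test. The 7 chaperone genes and the 7 translocation genes all lie right of 0, while the transcription factors, isomerases and degradation genes lie on both sides.

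Among the genes of ER-associated degradation, which returns misfolded proteins to the cytosol, Herpud1 gave the smallest p of the set. HERPUD1 is a membrane protein that organises the degradation complex. Its log2 intensities were 14.24, 14.30 and 14.31 in TRAF3KO cells, against 13.87, 13.80 and 13.89 in Control cells. The groups were apart by more than the spread within either. The mean was 14.28 ± 0.04 in TRAF3KO cells and 13.85 ± 0.05 in Control cells (SD, n = 3 each). Herpud1 rose by 0.43 ± 0.06 (limma adjusted p = 0.0023), and its other probe rose by 0.38 ± 0.07 (adjusted p = 0.014).

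The other 5 tested degradation genes did not pass. Sel1l, the adaptor of the HRD1 ligase, had 10.63, 10.57 and 10.55 in TRAF3KO cells, against 10.55, 10.06 and 10.26 in Control cells. Control replicate 1 reached the TRAF3KO values, and the difference was 0.29 ± 0.12 (adjusted p = 0.27). Its other kept probes differed by 0.80 ± 0.27 and 0.35 ± 0.37, neither called. Syvn1, the ligase HRD1 itself, differed by -0.10 (95% interval -0.25 to 0.06), with overlapping groups.

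Edem1, a lectin that hands misfolded glycoproteins to degradation, had 8.39, 8.57 and 8.34 in TRAF3KO cells, against 8.19, 8.17 and 8.08 in Control cells. Every TRAF3KO array was higher, by a difference of 0.29 (95% interval -0.04 to 0.62, adjusted p = 0.39). The derlins, membrane proteins of the export channel, did not share a direction. Derl3, the derlin of secretory tissues, had 6.98, 7.23 and 6.87 in TRAF3KO cells, against 5.47, 6.86 and 6.73 in Control cells, a difference of 0.67 (95% interval -0.16 to 1.50) set mostly by Control replicate 1. Derl2 had 8.56, 8.26 and 8.33 in TRAF3KO cells, against 8.81, 8.78 and 8.51 in Control cells, a difference of -0.31 (95% interval -0.66 to 0.03). Derl1 lay below the filter on all 3 of its probes.

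The translocation genes encode the SEC61 channel, the translocon-associated TRAP complex (Ssr genes) and the signal peptidase (Spcs genes). All 7 tested genes had positive differences, but these were small, from 0.02 to 0.21 with a median of 0.10. Of these, 0 passed limma's test and 2 had an unadjusted p under 0.05. Spcs3 had 11.57, 11.72 and 11.72 in TRAF3KO cells, against 11.34, 11.52 and 11.53 in Control cells, a difference of 0.21 (95% interval 0.01 to 0.40, adjusted p = 0.27). Ssr4 had 13.77, 13.76 and 13.59 in TRAF3KO cells, against 13.47, 13.57 and 13.57 in Control cells, a difference of 0.17 (95% interval 0.02 to 0.33, adjusted p = 0.26). The groups of Spcs3 and Ssr4 did not overlap, whereas those of the other 5 genes did.

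Of those 5, Ssr3 differed by 0.14, Sec61b and Ssr2 by 0.10 and 0.09, Sec61a1 by 0.05 and Spcs1 by 0.02. The 95% interval of Sec61a1, the channel's pore subunit, was -0.16 to 0.26, and that of Spcs1 was -0.15 to 0.18. Ssr1 was listed at 0 on all 6 arrays, Spcs2 lay below the filter and Sec61g had no probe.

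Of the genes tied to antibody secretion, Mzb1, an ER cofactor of immunoglobulin assembly in marginal zone B cells and plasma cells, had log2 intensities of 15.80, 15.93 and 15.84 in TRAF3KO cells, against 15.70, 15.71 and 15.62 in Control cells. The groups did not overlap, and the difference was 0.18 ± 0.06 (adjusted p = 0.13). Jchain, which links IgM and IgA into polymers, had 4.69, 5.81 and 4.97 in TRAF3KO cells, against 5.72, 5.31 and 4.54 in Control cells, with the groups fully mixed. Its difference was -0.03 (95% interval -1.33 to 1.26). Ell2, an elongation factor of plasma cells, lay below the filter.

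Plasma cell markers were measured in the same samples. Of 5 tested, 0 rose and 2 fell. Among all genes 2.3% were called higher and 2.14% lower, the background for this and the later marker lists. Sdc1, the plasma cell surface marker CD138, had log2 intensities of 6.32, 6.02 and 6.42 in TRAF3KO cells, against 8.38, 8.51 and 8.53 in Control cells. Sdc1 fell by 2.22 ± 0.21 (limma adjusted p = 2.4e-04). Cd93, a surface receptor of plasma cells and immature B cells, fell by 1.20 ± 0.15 (adjusted p = 0.0015). The other 3 had positive differences with overlapping groups. They were Irf4 at 0.07 ± 0.08 (adjusted p = 0.70), Slamf7 at 0.28 ± 0.17 (adjusted p = 0.47) and Cd28 at 1.69 ± 0.88 (adjusted p = 0.39). Cd28 was dim and lay above the 40th percentile on 4 of the arrays. The summed linear intensity of the 6 plasma cell markers with a probe was 6184 to 7398 in TRAF3KO cells, against 6479 to 7333 in Control cells. Irf4 alone made up 73.2% to 81.2% of that sum, and the other 5 markers summed to 1165 to 1764 in TRAF3KO cells, against 1726 to 1962 in Control cells. Of 7 tested genes that oppose the plasma cell programme, such as Pax5 and Bcl6, 0 rose and Id3 fell by 0.62 ± 0.13 (adjusted p = 0.024). With 1 array left out the adjusted p of Id3 ran from 0.017 to 0.097, under 0.05 only without TRAF3KO replicate 2 or Control replicate 3. Differences were positive for 4 of the 7. Of these, Irf8 at 0.24 ± 0.08 and Spib at 0.40 ± 0.13 had an unadjusted p under 0.05 (limma adjusted p = 0.14 for both). All TRAF3KO arrays lay above all Control arrays for Irf8 and Spib, and for 11.0% of all genes.

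The B cell markers Cd79a and Cd79b were near the top of the scale in both groups, at 15.98 and 16.06 in TRAF3KO cells and 15.99 and 16.07 in Control cells, and the summed B cell marker intensities overlapped. Cd79b alone made up 45.1% to 49.4% of that sum and Cd79a was nearly as bright, so the sum hardly reflects the other markers. Of 7 tested B cell markers 0 fell and 1 rose, Cr2, by 0.92 ± 0.18 (limma adjusted p = 0.019). At an unadjusted p under 0.05, 1 was higher and 1 lower. The lower one was Cd22, at -0.22 ± 0.08 (limma adjusted p = 0.20), with all TRAF3KO arrays below all Control arrays. With 1 array left out the adjusted p of Cr2 ran from 0.018 to 0.082, under 0.05 only without TRAF3KO replicate 2 or Control replicate 2, and the call was lost with inferred sex in the fit. Differences were negative for 7 of 8 tested monocyte and macrophage markers, with a median of -1.67, and Adgre1 was the exception at 0.05. All TRAF3KO arrays lay below all Control arrays for 4 of the 8, and for 11.4% of all genes. By limma 0 rose and 2 fell, C1qc and Lyz2 (5 were lower at an unadjusted p under 0.05). Both calls were lost in most fits without 1 array: C1qc was called only without TRAF3KO replicate 1 or Control replicate 2 (adjusted p up to 0.25), and Lyz2 only without Control replicate 2 (up to 0.16). The sums over the 10 of these genes with a probe overlapped, at 2193 to 3884 in TRAF3KO cells, against 3781 to 12387 in Control cells. Neutrophil markers summed to 99.6 to 151 in TRAF3KO cells, against 170 to 355 in Control cells, with 0 of 4 tested called by limma (0 at an unadjusted p under 0.05). S100a8, listed at 0 on replicate 1 of both groups, made up 0% to 85.7% of that sum. Without S100a8 the sums overlapped, at 63.6 to 116 in TRAF3KO cells, against 50.8 to 170 in Control cells. T cell and NK cell sums overlapped between groups, with 0 of 5 and 0 of 4 tested called by limma (2 and 1 at an unadjusted p under 0.05), and Cd8a and Ncr1 were listed at 0 on all arrays. Prf1 made up 92.3% to 97.3% of the NK cell sum. The sums of dendritic cell markers, with Itgax listed at 0 on all arrays, were 42359 to 44270 in TRAF3KO cells, against 43620 to 46764 in Control cells. Tcf4 made up 42.1% to 65.3% of that sum. Without Tcf4 the sums did not overlap, at 15305 to 17218 in TRAF3KO cells, against 21973 to 25769 in Control cells. Most of that remainder was Cst3, at a mean log2 intensity of 13.94 in TRAF3KO cells and 14.56 in Control cells, so it largely restates 1 gene. The dim markers Flt3, Xcr1 and Siglech differed by 0.64, 0.02 and 0.01, with overlapping groups. Of 6 tested, Tcf4 and Zbtb46 were called higher and Cst3 lower. Zbtb46 was listed at 0 on all Control arrays and passed the filter only through the 3 TRAF3KO arrays, so its call supports nothing. That call was also lost without any 1 TRAF3KO array (adjusted p up to 0.23) and with inferred sex in the fit. Erythroid markers summed to 63009 to 77316 in TRAF3KO cells, against 76733 to 80071 in Control cells, with Hba-a1 as 89.1% to 98.1% of the sum. Hba-a1 was near the top of the scale, at 16.05 in TRAF3KO cells and 16.12 in Control cells. All 5 tested erythroid markers had negative differences, with a median of -0.99. Of them 1 was called, Car2, which fell by 1.03 ± 0.23 (limma adjusted p = 0.033). With 1 array left out the adjusted p of Car2 ran from 0.041 to 0.11, under 0.05 only without Control replicate 1. The part of these other cells in the differences of ER genes was not tested.

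Beyond the 43 genes, 6 lists of other ER genes held 100 tested genes, of which 1 rose and 1 fell (2.0%, against 4.44% of all genes). Their median difference was 0.03. The list of other stress sensors and outputs had 1 of 22 genes called, Chac1, a glutathione-degrading enzyme induced through ATF4. Chac1 had log2 intensities of 8.85, 8.92 and 9.11 in TRAF3KO cells, against 7.90, 8.46 and 7.50 in Control cells. All TRAF3KO arrays were higher, and Chac1 rose by 1.00 ± 0.22 (limma adjusted p = 0.031). With any 1 array left out its adjusted p ran from 0.0077 to 0.12, under 0.05 only without Control replicate 2, and it lost the call with inferred sex in the fit.

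Further genes known as ATF4 targets were picked after their values were seen. Trib3 differed by 0.72 ± 0.28 (adjusted p = 0.24) with all TRAF3KO arrays higher, and Asns by 0.06 ± 0.29 (adjusted p = 0.94) with overlapping groups. In the list of other ER folding factors 1 of 16 was called. Fkbp11, a prolyl isomerase of secretory cells, had 7.68, 8.39 and 8.48 in TRAF3KO cells, against 9.19, 9.37 and 9.14 in Control cells, with no overlap. It fell by 1.05 ± 0.20 (limma adjusted p = 0.017). Without any 1 Control array the call was lost, with an adjusted p of up to 0.065.

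The other 4 lists had 0 called by limma. Translocon and signal peptide genes had a median of -0.05 over 12 genes (1 at an unadjusted p under 0.05), with Srp54a at 0.27 ± 0.11 and Srp68 at 0.20 ± 0.15, both of the signal recognition particle. Oligosaccharyltransferase and glycan trimming genes had a median of 0.07 over 11 genes (3 at an unadjusted p under 0.05), with Ddost at 0.30 ± 0.13 and Stt3a at 0.20 ± 0.20.

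Other ER-associated degradation genes had a median of -0.09 over 16 genes (2 at an unadjusted p under 0.05), with Rnf139 at -0.34 ± 0.38 and Herpud2 at -0.33 ± 0.11. Herpud2, a paralogue of Herpud1, thus had all TRAF3KO arrays below the Control arrays where Herpud1 had them above (adjusted p = 0.15 for Herpud2). ER to Golgi transport genes had a median of 0.04 over 23 genes (3 at an unadjusted p under 0.05). The widest there were dim, Sec24d at -2.96 ± 1.90 and Arf4 at 1.33 ± 0.63, neither called.

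Read beside the promoters shown above, the 8 tested genes with an ERSE or ERSE-II match had a median difference of 0.37, with 7 of 8 positive. The exception was Syvn1. The 17 tested genes with a promoter window and neither element had a median of 0.10, with 10 of 17 positive. Hyou1, Sec61a1, Ssr2, Spcs3 and Mzb1 had no window and fell outside both groups, and all had positive differences. Among the genes with a match, Hspa5, Hsp90b1, Dnajc3, Creld2 and Calr were chaperone genes. All 7 tested chaperone genes had positive differences, so element and role were not separated here. Of the 3 called genes, Herpud1 held ERSE-II and the windows of Xbp1 and Pdia4 held neither element as spelled. Outside the set, 10 tested genes held either element, with a median of 0.12, 7 of 10 positive and 0 called by limma (2 at an unadjusted p under 0.05). These are descriptions over genes on shared arrays, and the difference between the groups of genes was not tested.

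**Figure D4:**
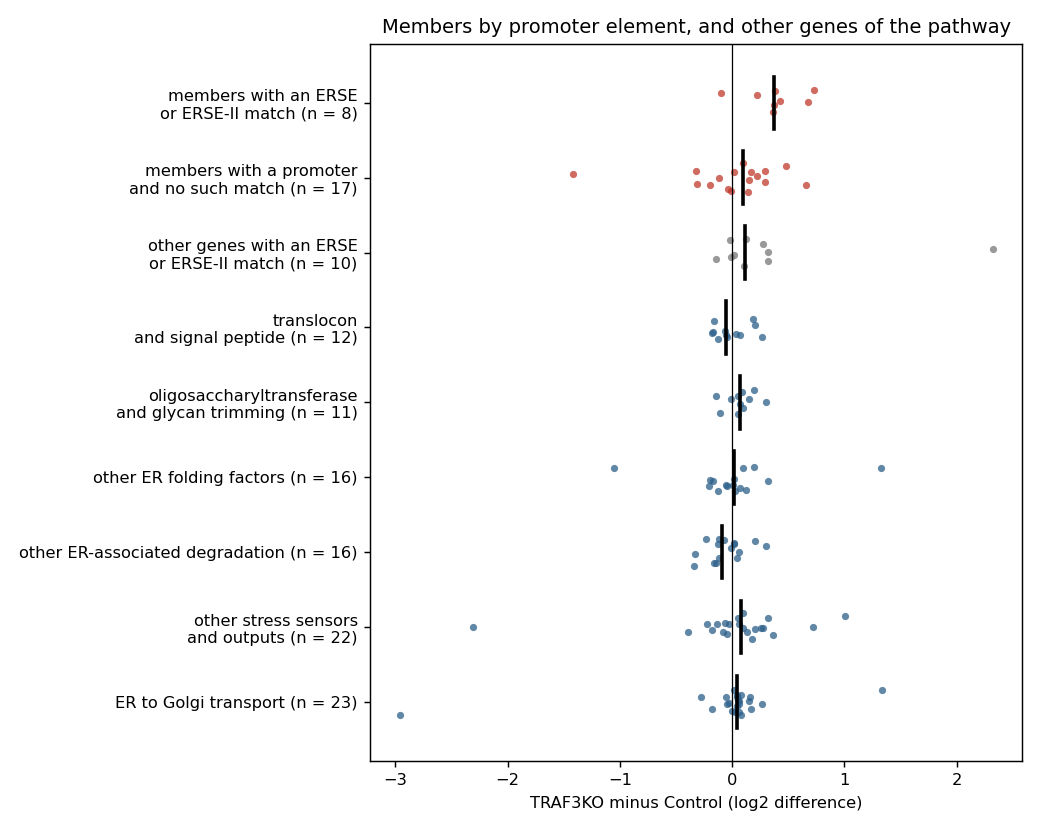
Log2 differences, TRAF3KO minus Control, of single genes (points) and the median of each group (black bar): genes of the set with and without an ERSE or ERSE-II match (red), other genes with a match (grey) and 6 lists of other ER genes (blue). The median of the genes with a match is 0.37, and the medians of the 6 other lists lie between -0.09 and 0.08.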

How the data were processed

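The authors deposited log2 intensities of 25697 probes on 6 arrays. Per the submitters' processing notes BeadStudio 3.2.3 was used, in a role not stated. Background correction and normalization: not given in the sources used here. Between 31.3% and 31.4% of probes on each array were at 0, the floor, and array medians differed by at most 0.00706. Detection p-values were not used, and 6 arrays limit the precision.

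Gene names came from the platform annotation (23141 with 1 symbol, 0 with several, 2556 unnamed here). No probe carried the symbol Traf3, so the knockout was not checked here. Values were used as deposited. Of the probes, 15657 passed the filter. The 40th percentile averaged 3.96 (an intensity of 15.6). In R 4.3.3, limma 3.58.1 then fitted each probe on group alone (lmFit and trended eBayes), and the procedure was tested on simulated data. Marker sums used linear intensities, with values at the floor counted as 0.

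The genes, lists, search letters and tests were chosen with earlier results of these data known. Every gene of the set was named. Of each other ER list, up to 4 called genes of smallest adjusted p were named, or the 2 with the widest difference where none was called. Same-numbered arrays of the groups deviated together with r of 0.03 to 0.04 across probes, under the 0.1 set for a pair, so replicate numbers were taken as names only. Alternatives were other filters, normalizations, variance models, offsets of 16 and 50, array weights, the mean of a gene's probes, blocks for replicate number and for sex inferred from Xist and Eif2s3y, and leaving out each array.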

Additional observations from a re-analysis of the deposited data

How the results depend on the processing

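Under 19 alternatives the median difference of the set stayed positive, from 0.14 to 0.21. Herpud1 was called in 17 of them, Xbp1 in 16 and Pdia4 in 15. Quantile normalization and centring on the median of kept probes gave the main counts again, 3 genes of the set and 457 of all genes. The deposited values hardly changed under these settings, which therefore add little to the counts of alternatives. Where the variance model had no trend, 0 genes of the set were called by limma (9 at an unadjusted p under 0.05), 65 of all genes and 0 of the other ER lists (8 at an unadjusted p under 0.05). Without variance moderation the counts were 1 (Dnajc3), 37 and 1. With no filter on dim probes 2 genes of the set were called, Herpud1 and Dnajc3, with 114 of all genes and 1 of the other ER lists. A robust variance model called 5 genes of the set, adding Calr and Creld2. Leaving out 1 array gave 3 to 5 genes of the set, against 227 to 382 of all genes (457 with all arrays) and 0 to 3 of the other ER lists. The 5 were reached without TRAF3KO replicate 1, again through Calr and Creld2. Of all genes 227 and 287 were called without Control replicates 1 and 3, and 0 of the other ER lists in either fit (5 and 9 at an unadjusted p under 0.05). Of all genes 282 and 278 were called without TRAF3KO replicates 1 and 2. Fewer samples were tested in these fits, and the cause of each change was not tested. With the replicate block 4 genes of the set were called, Atf4 lower among them (adjusted p = 0.025), and 468 of all genes. Every TRAF3KO array correlated best with the Control array of its own number, a hint from the data and not from the design. Values at the floor have no order, so the 8 genes below the filter allow no comparison.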
